A study of Bos taurus with 18 samples.

Results

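T cells are lymphocytes that recognise antigen through the T cell receptor, and the genes described here mark them in the cells of cow's milk. The receptor's antigen-binding chains cannot signal by themselves. They are held at the cell surface by the CD3 chains encoded by CD3D, CD3E and CD3G, which pass the signal inward. CD2 and CD96 are adhesion receptors shared by T cells and natural killer cells, TCF7 is a transcription factor of naive and memory T cells, and IL7R is the receptor for the survival cytokine interleukin 7. In milk, T cells are known as a resident minority beside macrophages, shed secretory epithelium and, during infection, neutrophils.

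The members were the probe sets whose gene symbol in the platform annotation was exactly CD3D, CD3E, CD3G, CD2, CD96, TCF7 or IL7R. Of these 7 genes, 6 were measured, by 10 of the 24016 probe sets tested, while the whole array named 9155 genes. CD2 had 3 probe sets, CD3D and TCF7 had 2 each, and CD3E, CD3G and CD96 had 1 each. No probe set carried the symbol IL7R, so the interleukin 7 receptor was not analysed here. Where a gene had several probe sets, the brightest on average stands for it below. By the RefSeq gene order of the cattle assembly ARS-UCD2.0, CD3E, CD3D and CD3G lie next to each other, in that order, on chromosome 15. CD96 lies on chromosome 1 beside NECTIN3, CD2 on chromosome 3 between PTGFRN and IGSF3, and TCF7 on chromosome 7 between VDAC1 and SKP1.

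RNA of milk cells from 18 dairy cows was measured on Affymetrix bovine arrays, 1 array per cow. The groups were 6 cows with mastitis (an inflammation of the udder), 6 cows with endometritis (inflammation of the uterine lining) and 6 healthy cows. Cows with mastitis or endometritis were in lactations 1 to 8 and were sampled 10 to 220 days after calving. The healthy cows had under 100000 cells per ml of milk and were mostly sampled 10 to 100 days after calving. The labels give them an age of 2 to 4 years and also lactations 1 to 8, which cannot both hold, and they give no age for the diseased cows. Stage of lactation and age can therefore differ between the groups. The animals came from farms and veterinary clinics, no treatment is named, and the titles number the samples without saying what the number stands for.

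Values are normalised intensities on a log2 scale, on which 1 unit is a 2-fold difference. The table's lowest value was 2.43 and its median was 2.55, so a probe set at or under 2.55 is called at background here. A probe set's level depends on its own sequence, so levels are compared between arrays and never between genes. With 6 arrays in a group, it is the number of cows that limits how precise a difference can be.

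The label of the genes was checked against other T cell markers. Of the 15 listed further markers, 10 were measured. CD247, the zeta chain of the receptor complex, read 2.77 to 6.52 on mastitis arrays, 4.27 to 8.67 on endometritis arrays and 3.40 to 6.90 on healthy arrays, and was above background on all 18. CD8A, a co-receptor of cytotoxic T cells, and the kinase LCK were also above background on all 18 arrays. CD4, the co-receptor of helper T cells, was at background on all 18 arrays, CD28 on 17, CD6 on 16 and CD5 on 12. Signal from T cell genes was therefore present in every group, but these arrays gave no reading of CD4.

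The receptor complex varied widely between cows of the same group. CD3D read 2.79 at the lowest, 4.36 at the median and 6.07 at the highest in mastitis, 3.88, 4.61 and 8.16 in endometritis, and 2.94, 4.59 and 6.50 in healthy cows. CD3E, the chain needed to assemble the complex, read 3.04, 3.37 and 4.35 in mastitis, 3.22, 3.83 and 6.59 in endometritis, and 3.45, 3.83 and 5.52 in healthy cows. CD3G read 2.45, 5.06 and 6.90 in mastitis, 4.79, 5.47 and 9.15 in endometritis, and 3.16, 5.18 and 7.48 in healthy cows. For each of the 3 chains the ranges of all 3 groups overlapped, and the mean was highest in endometritis and lowest in mastitis. No pair of groups differed beyond the spread between cows. That includes mastitis against endometritis, with adjusted p in limma of 0.488 for CD3D, 0.375 for CD3E and 0.361 for CD3G.

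The adhesion receptors overlapped between groups in the same way. CD2 read 2.43, 3.62 and 5.25 in mastitis, 2.98, 3.61 and 6.55 in endometritis, and 2.52, 3.34 and 4.74 in healthy cows. CD96 read 2.43, 3.15 and 5.15 in mastitis, 3.62, 3.90 and 7.91 in endometritis, and 2.53, 3.89 and 6.00 in healthy cows. Endometritis had the highest mean of both genes, and the lowest mean of CD2 was that of the healthy cows. CD2 was at background on 2 mastitis arrays and 1 healthy array, and CD96 on 1 array of each of those groups.

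TCF7 was low on every mastitis array. Its 6 mastitis arrays read 2.71, 2.71, 2.71, 2.97, 3.53 and 3.48, the 6 endometritis arrays 5.38, 7.87, 4.11, 8.66, 4.65 and 3.89, and the 6 healthy arrays 4.88, 2.43, 5.51, 5.82, 4.77 and 7.14 (cows 1 to 6 of each group). The highest mastitis array lay below the lowest endometritis array, so these groups did not overlap at this probe set. At the other TCF7 probe set they did, with mastitis up to 2.73 and endometritis from 2.72. The share of all probe sets without overlap is not given here. Against healthy cows, mastitis overlapped through a single array, healthy 2, which stood at the table's lowest value. The SD over cows was 0.39 in mastitis, 2.02 in endometritis and 1.56 in healthy cows. Mastitis 1, 2 and 3 carried exactly the same TCF7 value, and such tied low readings have no order among themselves.

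**Figure D1:**
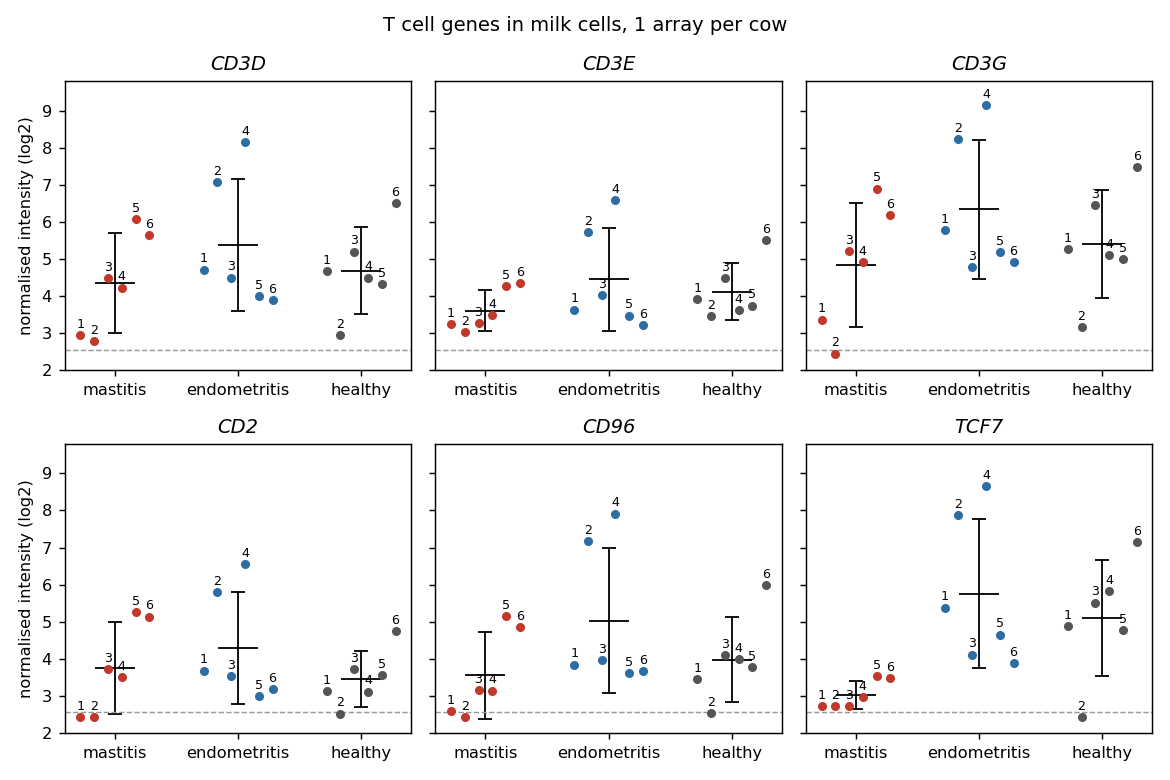
Normalised intensity (log2) of the 6 measured T cell genes on each array, with mastitis, endometritis and healthy cows from left to right; numbers are the cows, black bars the mean and SD of 6 arrays, and the dashed line the table median of 2.55. Mastitis cows 5 and 6 are high for CD3D, CD3E, CD3G, CD2 and CD96 but not for TCF7, for which all 6 mastitis arrays lie at or under 3.53.

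The order of the arrays was similar for most of the genes. Endometritis 4 ranked first and endometritis 2 second of the 18 arrays for all 6 genes. Healthy 6 was among the highest 3 arrays for 5 genes and ranked 5 for CD2. At the other end, mastitis 1, mastitis 2 and healthy 2 were each among the lowest 3 arrays for 5 of the 6 genes. Mastitis 5 and 6 ranked between 3 and 6 for the CD3 chains, CD2 and CD96, and 12 and 13 for TCF7.

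**Figure D2:**
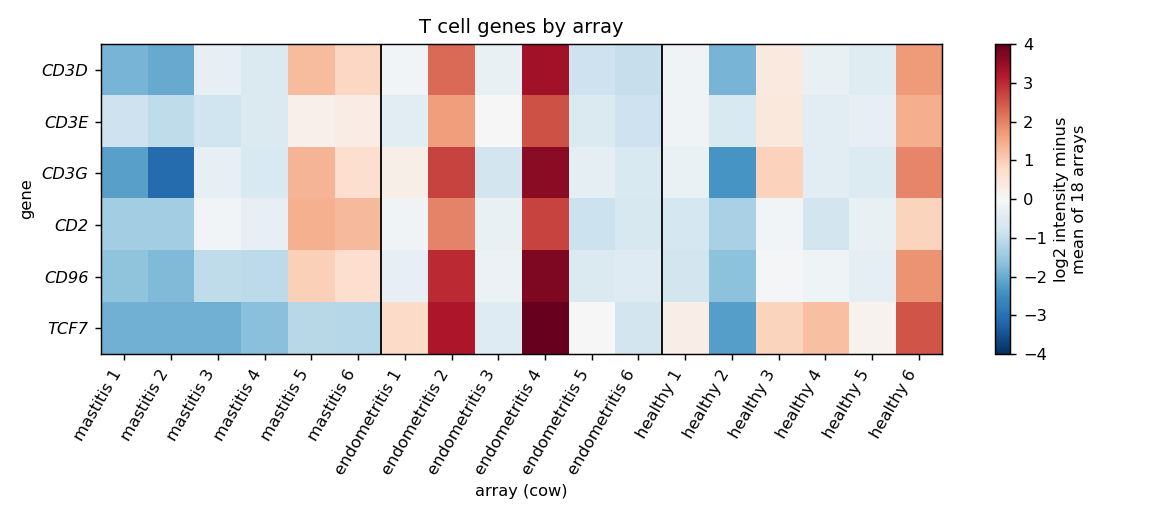
Each cell is a gene's log2 intensity on an array minus that gene's mean over the 18 arrays (red higher, blue lower), with genes as rows and cows as columns. Endometritis 2, endometritis 4 and healthy 6 are red, and mastitis 1, mastitis 2 and healthy 2 blue, for all 6 genes, and the TCF7 row is blue on all 6 mastitis arrays.

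After each gene was centred on its group means, the members moved together from cow to cow. Over 18 arrays Pearson's r lay between 0.815 for CD2 with TCF7 and 0.982 for CD3D with CD3G, with a median of 0.935 over the 15 pairs. Spearman's rho lay between 0.765 and 0.981. All 15 pairs passed a permutation test within groups, with adjusted p at most 0.00024 for r and 0.00244 for rho over a family of 60 relations. Leaving out the 2 arrays farthest from the median of the pair's first gene, r stayed between 0.691 and 0.976. The pairs share their libraries, so array quality and the share of T cells in a sample enter every one of them.

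Within single groups the relation leaned on fewer arrays. Among mastitis cows r lay between 0.838 and 0.994 and 14 of 15 pairs passed the exact permutation test of r after adjustment, among endometritis cows it lay between 0.952 and 0.997 and all 15 passed, and among healthy cows it lay between 0.769 and 0.989 and 13 passed. By the exact permutation test of Spearman's rho, 6 of 15 pairs passed after adjustment in mastitis, 6 in endometritis and 4 in healthy cows. Again 2 of the 6 arrays, those farthest from the median of the pair's first gene, were left out. The r then ran from 0.474 to 0.994 in mastitis, from -0.113 to 0.961 in endometritis and from -0.119 to 0.971 in healthy cows. Some pairs of the endometritis and healthy groups thus leaned on those arrays, such as CD3E with CD3G in endometritis at -0.113 and CD2 with TCF7 in healthy cows at -0.119. With so few arrays left, each such r is only a rough value.

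The mean of CD3D, CD3E and CD3G was then set against 6549 named genes above background in the mean. This ranking describes the arrays and has no test. Among the members, CD3D and CD3G ranked 1 and 2 as parts of that mean, CD2 ranked 3 with r of 0.975, CD96 ranked 5 with 0.972, CD3E ranked 15 and TCF7 ranked 50 with 0.885. The 10 other genes most like the receptor complex were LOC509513 at 0.975, CTSW at 0.972, STN1 at 0.972, PLCG1 at 0.965, RRAS2 at 0.961, CD247 at 0.960, ZAP70 at 0.957, PRKCQ at 0.957, FYN at 0.956 and GUCY1B1 at 0.953. CD247 is the remaining signalling chain of the complex. FYN is a kinase that phosphorylates the chains, as LCK does, ZAP70 is a kinase that binds the phosphorylated chains and acts on LAT and LCP2, and PLCG1 and PRKCQ carry the signal further. CTSW is a protease of cytotoxic lymphocytes, and STN1 is a telomere-binding protein. RRAS2 is a small GTPase. It alone of these 10 genes was called, lower at -1.71 in mastitis against endometritis (adjusted p = 0.0228 in limma). Of named genes, 10.9% were called lower there. STN1 at -2.40 and GUCY1B1 at -3.12 differed by more there without passing (adjusted p = 0.0569 and 0.054 in limma). LCK ranked 35 with 0.906 and CD8A ranked 46 with 0.891.

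The first comparison asked whether T cell genes differ in milk cells of cows with mastitis. Of the 6 genes, 0 were called at an adjusted p under 0.05 by limma, against 19.5% of all probe sets, and against 11.3% of named genes called higher and 15.8% called lower. Before adjustment, 1 of the 6 genes, TCF7, had a p under 0.05, as did 7079 of the 24016 probe sets. TCF7 averaged 3.02 ± 0.39 in mastitis and 5.09 ± 1.56 in healthy cows (SD, n = 6 each). The difference was -2.07 ± 0.85 (SE), 4.21-fold lower, with 6 of 6 mastitis arrays below the healthy mean, and its adjusted p in limma was 0.106. Without healthy 2 TCF7 was called, at -2.61 with an adjusted p of 0.0345. It was also called in the fit of only the 12 arrays compared (0.0487) and with dim probe sets left out (0.0493). Together with the fit without healthy 2, these were the only 3 calls among 26 alternatives. With array weights the difference was -1.46 (adjusted p = 0.347 in limma), and the other TCF7 probe set had an adjusted p of 0.44. In RNA from mixed cells, fewer T cells and less RNA of a gene per T cell cannot be told apart.

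The remaining genes gave differences near or below 0 with wide intervals. CD3D differed by -0.33 (95% interval -2.08 to 1.42), CD3E by -0.52 (-1.68 to 0.65) and CD3G by -0.57 (-2.60 to 1.45). CD2 differed by 0.28 (-1.17 to 1.74) and CD96 by -0.43 (-2.20 to 1.35). These intervals hold differences of more than 2-fold in both directions for CD3D, CD3G, CD2 and CD96, so 6 cows a group did not show whether the genes differ. The median over the 6 genes was -0.47, against -0.01 over all named genes. Of those 9155 genes only 6549 had a mean above background, as all 6 members had, and the members moved together, so this contrast was not tested.

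The second comparison asked whether a disease outside the udder was seen in the T cell genes of milk. All 6 genes averaged higher in endometritis than in healthy cows, and 0 were called by limma. No probe set of the array was called in this comparison, that is 0% of all probe sets, 0% of named genes higher and 0% lower, while 1047 probe sets, or 4.36%, and 0 of the 10 member probe sets reached an unadjusted p under 0.05. CD96 averaged 5.03 ± 1.96 in endometritis and 3.98 ± 1.14 in healthy cows (SD, n = 6 each), a difference of 1.05 (95% interval -0.72 to 2.83, adjusted p = 0.925 in limma). CD3G differed by 0.93 (-1.10 to 2.96), CD2 by 0.83 (-0.62 to 2.28), CD3D by 0.70 (-1.06 to 2.45), TCF7 by 0.67 (-1.13 to 2.46) and CD3E by 0.32 (-0.84 to 1.49). The medians of the groups lay closer than their means, and endometritis 2 and 4 stood far above the other arrays. Without endometritis 4 the TCF7 difference was 0.09 and that of CD3E was -0.11.

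The third comparison set the 2 diseases against each other. Of the 6 genes, 1 was called, TCF7, which was lower in mastitis. The background was 14.5% of all probe sets, with 9.14% of named genes called higher and 10.9% lower, and a single call among 6 genes lies near that background. TCF7 averaged 3.02 ± 0.39 in mastitis and 5.76 ± 2.02 in endometritis (SD, n = 6 each). The difference was -2.74 ± 0.85 (SE), 6.69-fold lower, with an adjusted p of 0.0394 in limma. Each array was left out in turn, which gave 18 leave-one-out fits. The TCF7 call did not survive 8 of them, those without mastitis 1, 2, 3, 4 or 6 or without endometritis 1, 2 or 4, with adjusted p between 0.0533 and 0.091 and differences between -2.83 and -2.16. It was also lost with only the 12 arrays compared (adjusted p = 0.0579), with array weights (0.0881) and with the 3′ minus 5′ difference of GAPDH, a measure of RNA quality, as a covariate (0.0564).

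For the other 5 genes the mastitis mean was lower as well, without passing. CD3G differed by -1.50 (95% interval -3.53 to 0.53), CD96 by -1.48 (-3.25 to 0.29), CD3D by -1.03 (-2.78 to 0.73), CD3E by -0.84 (-2.01 to 0.32) and CD2 by -0.55 (-1.998 to 0.91). The median over the 6 genes was -1.25, against -0.01 over all named genes, dim ones included. The members moved together from cow to cow, so this contrast is no test of the set. The 2 comparisons with mastitis share the mastitis arrays, and those against healthy cows share the healthy arrays.

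**Figure D3:**
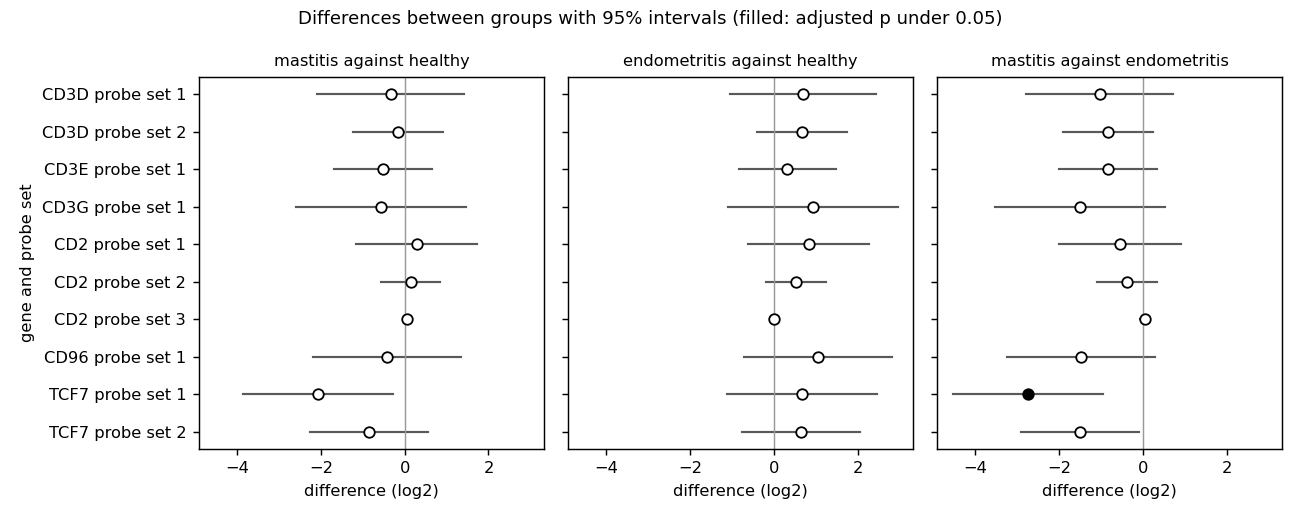
Differences (log2) for the 10 probe sets of the T cell genes in the 3 comparisons, with 95% intervals from limma; the group named first is on top of the difference, and a filled point has an adjusted p under 0.05. The filled point is TCF7 probe set 1 in mastitis against endometritis, at -2.74.

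Further probe sets were available for 3 of the genes. The other TCF7 probe set read 2.43, 2.61 and 2.73 at the lowest, median and highest in mastitis, 2.72, 3.18 and 6.76 in endometritis, and 2.45, 3.23 and 5.10 in healthy cows. It was at background on 3 mastitis arrays. Its difference was -1.51 (95% interval -2.92 to -0.10, adjusted p = 0.158 in limma) in mastitis against endometritis and -0.86 (-2.27 to 0.55) in mastitis against healthy cows, so the call of TCF7 rested on 1 of its 2 probe sets. The other CD3D probe set differed by -0.16, 0.68 and -0.84 in mastitis against healthy, endometritis against healthy and mastitis against endometritis. Of the 2 further CD2 probe sets, one differed by 0.14, 0.53 and -0.39 in the same order, and the last was at background on 17 of 18 arrays and gave no reading.

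Because the cows differed so much in all T cell genes, TCF7 was also read against each other member on the same array. This comparison was chosen after the values had been seen, so its p-values are not independent evidence. The offset between 2 probe sets has no meaning of its own, only its change between groups has. CD3D and CD3E were above background on all 18 arrays, and TCF7 on all but healthy 2. Mastitis 1, 2 and 3 were tied at a TCF7 value of 2.71, so the offsets there, as on healthy 2, may be bounds. TCF7 minus CD3E averaged -0.59 ± 0.19 in mastitis, 1.31 ± 0.83 in endometritis and 0.97 ± 1.09 in healthy cows (SD, n = 6 each). Every mastitis array lay below every endometritis array, with a difference of -1.90 (exact two-sided permutation p = 0.00216, the smallest that 6 against 6 can give, adjusted 0.0162 over 15 tests). TCF7 alone already parted these 2 groups, so this p adds no separate support. Against healthy cows the difference was -1.56 (exact permutation p = 0.0152, adjusted 0.0284).

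Relative to CD3D, TCF7 was lower in mastitis than in endometritis (-1.71) and than in healthy cows (-1.74), each with an exact permutation p of 0.00866, adjusted 0.0186. The differences relative to CD2 were -2.20 against endometritis and -2.36 against healthy cows, those relative to CD96 -1.26 and -1.65, and those relative to CD3G -1.24 and -1.50. These last 3 genes were at background on some arrays, CD2 on mastitis 1, mastitis 2 and healthy 2, CD96 on mastitis 2 and healthy 2, and CD3G on mastitis 2. A reading at the floor leaves the offset there as a bound, so no order of arrays and no p is read from these 3. The p-values relative to CD3E and CD3D hold the tied and floor readings of TCF7 too, and only describe these arrays. In endometritis against healthy cows the 5 differences lay between -0.39 and 0.34. Relative to CD3D, TCF7 stood lowest on mastitis 5 and 6, at -2.54 and -2.17, and near 0 on mastitis 1 and 2, at -0.23 and -0.07, where both genes were close to their lowest values.

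**Figure D4:**
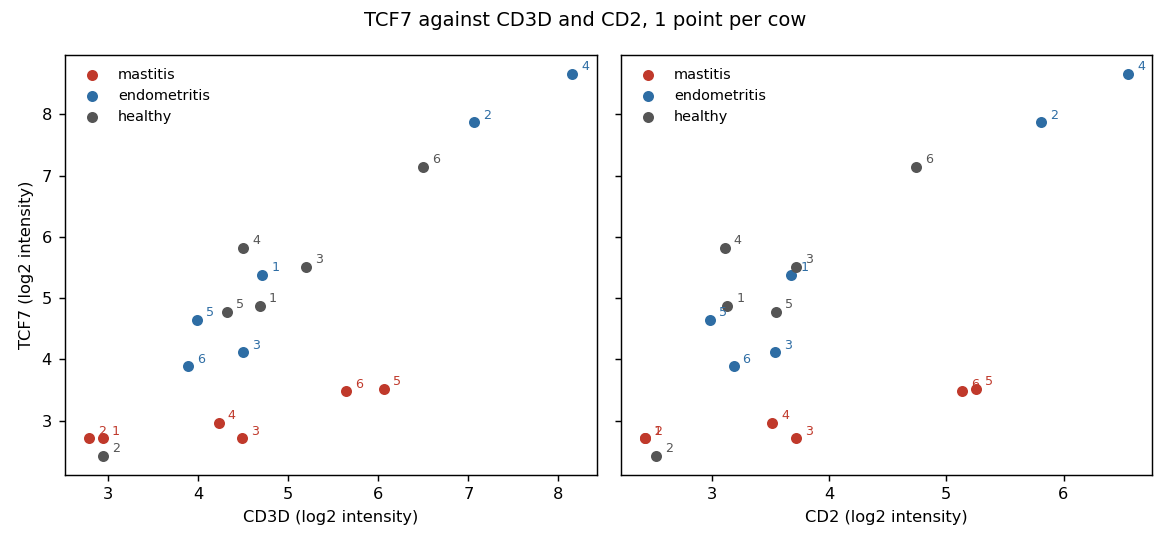
TCF7 intensity (log2, vertical) against CD3D (left) and CD2 (right), 1 point per cow, numbered within its group. Endometritis and healthy cows rise together along both axes, while mastitis cows 3 to 6 extend to the right at TCF7 values from 2.71 to 3.53.

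The relative difference depended on the probe set. With the other TCF7 probe set, which was at background on 3 mastitis arrays, 1 of the 10 differences of mastitis from endometritis or healthy cows reached an exact permutation p under 0.05, that against CD3E in mastitis against endometritis (-0.67, p = 0.0433). It also depended on the number in the sample titles. Among arrays numbered up to 120, with 4 mastitis and 3 healthy cows, TCF7 differed by -2.74, while CD3D differed by -0.00038, CD3E by -0.46, CD3G by -0.055, CD96 by -0.52 and CD2 by 0.60. Among those above 120, with 2 mastitis and 3 healthy cows, TCF7 differed by -1.56, CD3G by -2.06, CD3D by -1.41, CD96 by -0.85, CD3E by -0.81 and CD2 by -0.69, so CD3G differed by more than TCF7, and TCF7 minus CD3D differed by -0.15. In mastitis against endometritis the groups up to 120 held 4 cows and 1 cow, and those above 120 held 2 and 5, where TCF7 differed by -3.12, CD3G by -3.55, CD3D by -2.66, CD96 by -2.76, CD2 by -1.98 and CD3E by -1.47. For endometritis against healthy cows, TCF7 differed by -0.54 with 1 and 3 cows up to 120 and by 1.56 with 5 and 3 cows above it. What the title number stands for is not given.

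Markers of other milk cells differed in mastitis. The mean level of 11 neutrophil markers ran from 7.35 to 8.64 on mastitis arrays, from 4.17 to 6.37 on endometritis arrays and from 4.81 to 6.34 on healthy arrays. That of 19 mammary secretory markers ran from 4.90 to 7.18, from 7.89 to 11.1 and from 9.38 to 11.04 in the same order. In mastitis against healthy cows, 7 of 11 neutrophil markers were higher and 1, LTF, was lower, and 16 of 19 secretory markers were lower, while 0 of 11 macrophage markers passed. Of all named genes, 11.3% were called higher and 15.8% lower there, and 9.14% and 10.9% in mastitis against endometritis. LTF lost its call without mastitis 2, healthy 2 or healthy 4 (adjusted p up to 0.0567). Relative to endometritis, 7 of 11 neutrophil markers were higher and 16 of 19 secretory markers lower in mastitis, and between endometritis and healthy cows 0 markers of these 3 lists were called. CAMP in the neutrophil list and KRT8 in the secretory list were at background on all 18 arrays. The mean level of the 6 T cell genes ran from 2.64 to 5.19 in mastitis, from 3.79 to 7.84 in endometritis and from 2.84 to 6.23 in healthy cows. The part of these other cells in the TCF7 result was not tested.

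Markers of lymphocytes other than T cells were measured as well. Of 15 NK and cytotoxic markers, 4 were higher in mastitis than in healthy cows, beside 11.3% of named genes called higher. The mean level of the 15 ran from 3.54 to 4.96 in mastitis, from 3.13 to 4.98 in endometritis and from 3.29 to 4.47 in healthy cows. Among the 4 were FCGR3A, an antibody receptor also found on myeloid cells, higher by 3.13, and GNLY, a granule protein, higher by 3.61. TYROBP and NCR1 were the others, and both lost their call in 10 or more leave-one-out fits (adjusted p up to 0.0992), NCR1 with a difference of only 0.17. NCR1 averaged 2.62 in mastitis and 2.44 in healthy cows, near the floor. Relative to endometritis, FCGR3A and GNLY were higher, by 3.10 and 3.03 (GNLY at adjusted p = 0.0637 with 12 arrays), beside 9.14% of named genes. KLRB1, a lectin receptor, was called lower by only -0.059 and lost its call in 9 leave-one-out fits (adjusted p up to 0.0872). Its means, 2.45 in mastitis and 2.51 in endometritis, both lay at background. Of 6 B and plasma cell markers, BLK was higher in mastitis than in healthy cows, by 0.53, beside the same 11.3% of named genes. It lost its call in 8 leave-one-out fits (adjusted p up to 0.0784). In endometritis against healthy cows 0 of the 15 NK and 0 of the 6 B cell markers were called. Of the 10 further T cell markers, 0 were called in any comparison, as for the receptor chains. Among them CD4, CD28, CD6 and CD5 were at background on most arrays and could hardly be called. ZAP70 averaged 4.86 in mastitis, 6.78 in endometritis and 6.30 in healthy cows (adjusted p = 0.24 and 0.373 in limma for mastitis against endometritis and against healthy).

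The signalling genes that act with the receptor complex were described by lists. Of 17 measured genes of T cell receptor signalling, 3 were higher in mastitis than in healthy cows, 0 were lower and 14 did not pass, with a median of 0.08, and 3 of 17 lies near the 11.3% of all named genes called higher. VAV1, an exchange factor downstream of the receptor, rose by 2.87 ± 0.39 (SE), LCP2, an adaptor, by 2.38 ± 0.30, and PTPRC, the leukocyte phosphatase CD45, by 1.81 ± 0.48 at 1 of its 3 probe sets. All 3 are also expressed by neutrophils and other leukocytes, and the part of those cells was not tested. The T cell kinases and adaptor did not pass, with LCK at 0.65, LAT at 0.71 and ZAP70 at -1.44. In mastitis against endometritis, 3 of 17 were higher, VAV1 by 2.49, LCP2 by 1.80 and CSK, a kinase that restrains LCK, by 0.70, and 0 were lower. Of all named genes, 9.14% were called higher and 10.9% lower there. The call of CSK was lost in 7 leave-one-out fits (adjusted p up to 0.0789). In endometritis against healthy cows 0 of 17 were called, and the nearest were PTPRC at 0.95, LCP2 at 0.58 and FYN at 1.01 (adjusted p = 0.925 for each in limma).

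Of 14 measured genes of T cell subsets and receptors, 2 were higher in mastitis than in healthy cows, 0 lower and 12 did not pass, again near the 11.3% of named genes called higher. IL2RA, the inducible chain of the interleukin 2 receptor, averaged 5.80 in mastitis, 3.07 in endometritis and 3.01 in healthy cows. It rose by 2.80 ± 0.24 (SE) against healthy cows and by 2.74 against endometritis. CD69, an early activation marker of lymphocytes that other leukocytes also carry, rose by 2.70 and 2.69. Across cows, centred on group means, r with the mean of the CD3 chains was 0.201 for IL2RA and 0.697 for CD69. Which cells carried these differences was not tested. The call of CD69 was lost in 7 leave-one-out fits against healthy cows (adjusted p up to 0.0825) and in 10 against endometritis (up to 0.103), while that of IL2RA was kept in each. CD8A averaged 4.27 in mastitis, 4.68 in endometritis and 3.84 in healthy cows and was not called. Between endometritis and healthy cows 0 of 14 were called, with CD7 at 0.71, CXCR6 at 0.91 and CD8A at 0.84 the nearest.

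Among 13 measured transcription factors of T cells and partners of TCF7, 2 were higher in mastitis than in healthy cows, 1 was lower and 10 did not pass, near the 11.3% of named genes called higher and 15.8% called lower. TOX, a factor of activated and exhausted T cells, rose by 2.80 ± 0.58 and PRDM1, a factor of effector lymphocytes, by 2.12 ± 0.42 (SE). Across cows, centred on group means, r with the mean of the CD3 chains was 0.106 for TOX and -0.312 for PRDM1. Which cells carried these differences was not tested. TLE1, a co-repressor that binds TCF7, fell by 1.21 ± 0.41 at 1 of its 3 probe sets, and lost its call in 14 leave-one-out fits (adjusted p up to 0.108). LEF1, the closest relative of TCF7 in the list, averaged 3.64 in mastitis, 4.06 in endometritis and 3.91 in healthy cows and did not pass. Relative to endometritis, TOX and PRDM1 were higher, by 2.18 and 2.22 (TOX at adjusted p = 0.148 with array weights), and CTNNB1, the beta-catenin that binds TCF7, was lower, at -0.89. TLE1 was lower there too, at -1.31, and lost its call in 13 fits (adjusted p up to 0.0947). Of all named genes, 9.14% were called higher and 10.9% lower in mastitis against endometritis. In endometritis against healthy cows 0 of 13 were called, with ID2 at 0.67, IKZF3 at 0.41 and CTNNB1 at 0.25 the nearest.

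The interleukin 7 pathway was measured without its receptor. Of 9 genes, 3 were higher in mastitis than in healthy cows, 0 lower and 6 did not pass, beside 11.3% of named genes called higher. MCL1, a survival protein, rose by 2.34, STAT3 by 2.24 and IL2RG, the common cytokine receptor chain that pairs with IL7R, by 1.80. Centred on group means, r with the mean of the CD3 chains was 0.262 for MCL1, 0.246 for STAT3 and 0.553 for IL2RG. Which cells carried these differences was not tested. Against endometritis the same 3 genes rose, by 1.86, 1.98 and 1.60, beside 9.14% of named genes called higher. IL7 itself averaged 2.48 in mastitis, 2.46 in endometritis and 2.48 in healthy cows, below the table median. Between endometritis and healthy cows 0 of 9 were called, with BCL2 at 0.93, PIK3R1 at 0.73 and STAT5B at -0.18 the nearest.

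Of 8 measured ligands and partners of CD2 and CD96, 4 were higher in mastitis than in healthy cows and 1 was lower, beside 11.3% and 15.8% of named genes. CD48, a CD2 ligand on leukocytes, averaged 10.54 in mastitis, 6.91 in endometritis and 6.84 in healthy cows, and rose by 3.70 ± 0.60 (SE) against healthy cows. CD244, another receptor of CD48, rose by 2.46, and PSTPIP1, which binds the tail of CD2, by 2.37. CD2AP, an adaptor named for its binding to CD2 that epithelial cells also express, fell by 1.86 at 1 of its 4 probe sets. CD58, the other CD2 ligand, was also called, at 0.73, and is named after its value was seen. Which cells carried these differences was not tested. Relative to endometritis, CD48, PSTPIP1 and CD244 were higher, by 3.64, 2.05 and 1.86, and CD2AP was lower, at -1.67. In that comparison 9.14% of named genes were called higher and 10.9% lower. The call of CD244 there was lost in 8 leave-one-out fits (adjusted p up to 0.0775). NECTIN2, of the family that holds the ligands of CD96, averaged 3.05 in mastitis, 2.92 in endometritis and 3.09 in healthy cows and was not called. Of the 8 genes, 0 were called between endometritis and healthy cows, with CD58 at 0.27, CD244 at 0.60 and PSTPIP1 at 0.32 the nearest.

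RNA quality also moved with the groups. The 3′ minus 5′ difference of the GAPDH control probe sets, a measure that grows as RNA degrades, averaged 0.39 ± 0.23 in mastitis, 0.58 ± 0.25 in endometritis and 0.88 ± 0.40 in healthy cows (SD, n = 6 each). With that difference as a covariate TCF7 was -2.83 in mastitis against endometritis (adjusted p = 0.0564 in limma) and -2.29 in mastitis against healthy cows (0.277). With it, of the genes named above as called in mastitis against healthy cows, PTPRC, CD69, IL2RG, TOX, TLE1, CD244, CD58, CD2AP, GNLY, TYROBP, NCR1, LTF and BLK lost their call (adjusted p between 0.0736 and 0.665), while VAV1, LCP2, IL2RA, PRDM1, STAT3, MCL1, CD48, PSTPIP1 and FCGR3A kept it. Some of the lost differences stayed near their size, with CD69 at 2.64 with the covariate and 2.70 without it, GNLY at 3.12 and 3.61, NCR1 at 0.19 and 0.17, TLE1 at -1.02 and -1.21, BLK at 0.41 and 0.53, and LTF at -1.56 and -2.05. Others moved further, with TYROBP at 0.78 with it and 2.48 without it, PTPRC at 0.99 and 1.81, TOX at 1.81 and 2.80, CD2AP at -1.12 and -1.86, IL2RG at 1.21 and 1.80, CD244 at 1.82 and 2.46, and CD58 at 0.52 and 0.73. The part of RNA quality in these results was not tested.

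**Figure D5:**
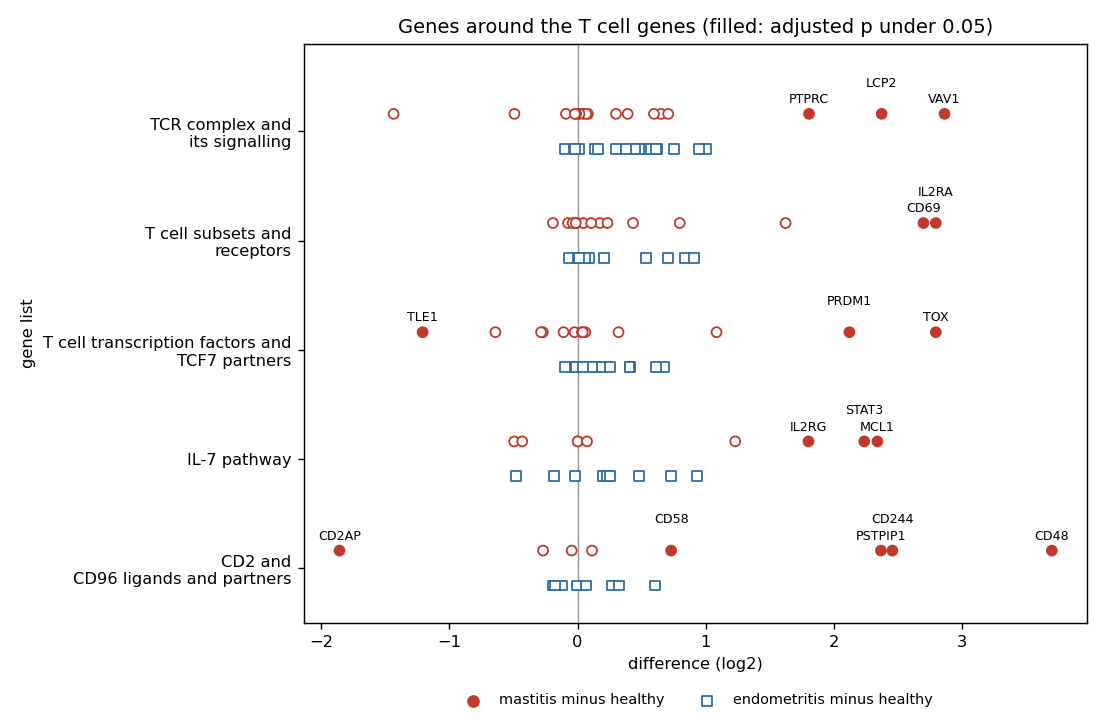
Differences (log2, horizontal) of the measured genes of the 5 lists, as circles for mastitis minus healthy and squares for endometritis minus healthy; filled symbols have an adjusted p under 0.05 in limma and are named. No square is filled, and the filled circles reach from -1.86 for CD2AP to 3.70 for CD48.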

How the data were processed

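Samples had RNA integrity numbers above 6, and 100 ng of RNA were labelled with a 3′ kit, per the labels' protocols. The authors deposited normalised values, read here as log2 from their range (2.43 to 14.2). RMA, GCRMA and limma are named in the submitters' processing notes, with no role or version; their order is not given in the sources used here. Of 24128 probe sets, 112 controls were left out; 13292 of the rest had 1 gene symbol, 86 several and 10638 none, and 0 columns belonged to no sample. Values at the floor compress differences of dim genes.

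Group differences come from linear models in limma (version 3.58.1, R version 4.3.3; lmFit, then eBayes; a term per group, 18 arrays, two-sided), with Benjamini-Hochberg adjustment over 24016 probe sets. A call needs an adjusted p under 0.05. The 18 arrays are separate cows, and no pairing is labelled. The procedure was tested on simulated data. Correlations and within-array differences used permutation tests in Python 3.11.15: 100000 permutations within groups for 18 arrays, and exact tests over 720 pairings or 924 arrangements for 6.

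The members, the lists and the rule for named genes were chosen with earlier results of these data known. Named genes are, per list and comparison, up to 4 called ones with the smallest p, or up to 3 where none was called, and the 10 most like the CD3 mean. The alternatives were 12 arrays, dim probe sets left out, median centring, array weights, a trended robust prior, title numbers up to 120 or above as a block, a GAPDH covariate, other probe sets, and each array left out.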

Additional observations from a re-analysis of the deposited data

Results flagged for a closer look

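The 3 values that stood far from the others of their group all belonged to the same dim CD2 probe set, which read 2.79 on mastitis 5, 2.53 on endometritis 4 and 2.43 on healthy 5. The other arrays of those groups lay at 2.43 or 2.44, the lowest value of the table, so the gaps are small on the log2 scale. In all, 45 groups of 6 arrays were examined, and chance flags about 1 in 20. Mastitis 5 and endometritis 4 were also the highest arrays of their groups at the main CD2 probe set.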

How the results depend on the processing

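No paired analysis was possible because the labels give no shared replicate numbers. In mastitis against healthy cows, 1 T cell gene was called with the 12 arrays alone and with dim probe sets left out, and 0 to 1 when each array was left out (1 without healthy 2). In mastitis against endometritis, 0 were called with the 12 arrays alone, array weights or the GAPDH covariate, and 0 to 1 with each array left out. With the GAPDH covariate 1428 probe sets were called in mastitis against healthy cows, against 4689 otherwise. In endometritis against healthy cows, 1 probe set was called with dim probe sets left out, arrays centred, array weights or the trended robust prior, and 0 to 1 with each array left out (1 without healthy 6).

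Differences that did not pass changed sign under some alternatives. Array weights gave CD3D 0.57, CD3G 0.57 and CD96 0.32 in mastitis against healthy cows, and CD2 0.043 in mastitis against endometritis, where the dim CD2 probe set gave 0.046. With each array left out, mastitis against healthy ran from -0.68 to 0.031 for CD3D and from -0.017 to 0.55 for CD2, and endometritis against healthy from -0.11 to 0.60 for CD3E. Above title number 120, TCF7 minus CD3G was 0.50 in mastitis against healthy and 0.43 in mastitis against endometritis, and in endometritis against healthy TCF7 minus CD3D was 0.32, minus CD3G 0.071 and minus CD2 0.27. With each array left out, endometritis against healthy ran from -0.21 to 0.16 for TCF7 minus CD3D, from -0.056 to 0.59 for minus CD3E and from -0.51 to 0.053 for minus CD2. These TCF7 alternatives were chosen after seeing the data, and the cause of each change was not tested.

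Genes near the floor of 2.43, such as the other TCF7 probe set in mastitis, have compressed differences, and tied values there carry no order. Of the listed genes called in mastitis against healthy cows, members left out, 39 of 45 kept their call in every leave-one-out fit, and 37 of 42 in mastitis against endometritis. In each comparison 16 mammary secretory and 7 higher neutrophil markers were among the called genes. With the GAPDH covariate, 14 of the 45 and 4 of the 42 lost their call. TCF7 is not in these counts, and its call in mastitis against endometritis was lost in several of the leave-one-out fits.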
